A study of Mus musculus with 60 samples.

Results

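The response of the mouse prefrontal cortex to fluoxetine was measured in 4 separate groups of mice, called arms below, and read gene by gene for how far the arms repeated one another. The arms were females and males carrying a heterozygous Trip12 genotype (HT) and females and males of the wild type (WT). In each arm 5 fluoxetine libraries were set against 5 vehicle libraries, so that 40 of the 60 libraries of the series entered and no library served in more than one arm. All mice were C57BL/6J and were killed on postnatal day 25, after 3 weeks (postnatal days 3 to 24) in which pups received fluoxetine or vehicle through the milk of the dam. The other 20 libraries came from lithium-treated mice and entered only the estimate of spread and the closing comparison of the drugs. The labels name neither single animals nor litters, so p-values here reflect how much these samples vary, and a shared dam cannot be told apart from a shared treatment. What the Trip12 allele is, the labels do not say.

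Fluoxetine is a selective serotonin reuptake inhibitor: it blocks the serotonin transporter and raises serotonin outside cells. Sterol synthesis in brain cells is under the transcription factor SREBP-2, product of Srebf2. The escort protein Scap carries it out of the endoplasmic reticulum when sterol is low, and Insig proteins hold it back when sterol is high. The synthesis enzymes and Srebf2 itself are among its targets. Glucocorticoid hormones, released in stress and with the daily cycle, act through a nuclear receptor whose induced genes include Fkbp5 and Zbtb16 in brain.

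Depth, as reads recovered from the deposited values, lay between 26.6 and 31.0 M reads per vehicle library and between 32.7 and 36.6 M per fluoxetine library. Depth did not overlap between treatments in any arm (exact permutation p = 0.0079 in each, two-sided, the smallest that 5 against 5 allows, and 0.095 after Benjamini-Hochberg adjustment over 48 tests). Depth and fluoxetine therefore cannot be told apart in these libraries. The slope of expression on gene length was higher under fluoxetine in HT females (0.0356 against -0.00554, exact permutation p = 0.016, adjusted 0.15) and in WT females (0.0383 against -0.00522, exact permutation p = 0.024, adjusted 0.19). In males the means did not differ by that test (exact permutation p = 0.41 in HT and 1 in WT). A pair of libraries stood apart. WT fluoxetine male replicate 2 had a length slope of -0.17 where the other 4 of its group lay between 0.0058 and 0.0116. Those 4 lay above all WT male vehicle libraries (-0.0289 to 0.00168), so the result in WT males rests on that library. HT vehicle male replicate 1 had a GC slope of -2.61 where the others of its group lay between 0.173 and 0.797. The main counts are given with and without them. Slc17a7, the vesicular glutamate transporter of cortical excitatory neurons, had a median of 45900 normalized counts under fluoxetine and 45800 under vehicle, and Xist and the Y-linked Ddx3y matched the labelled sex. Trip12 itself had 4390 to 6630 normalized counts under fluoxetine and 5100 to 6950 under vehicle (log2 difference 0.05 ± 0.027, SE, limma adjusted p = 0.21), and without that pair the difference was 0.08 (limma adjusted p = 0.0037). Its group means were not lower in HT than in WT libraries, so the genotypes rest on the labels.

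**Figure D1:**
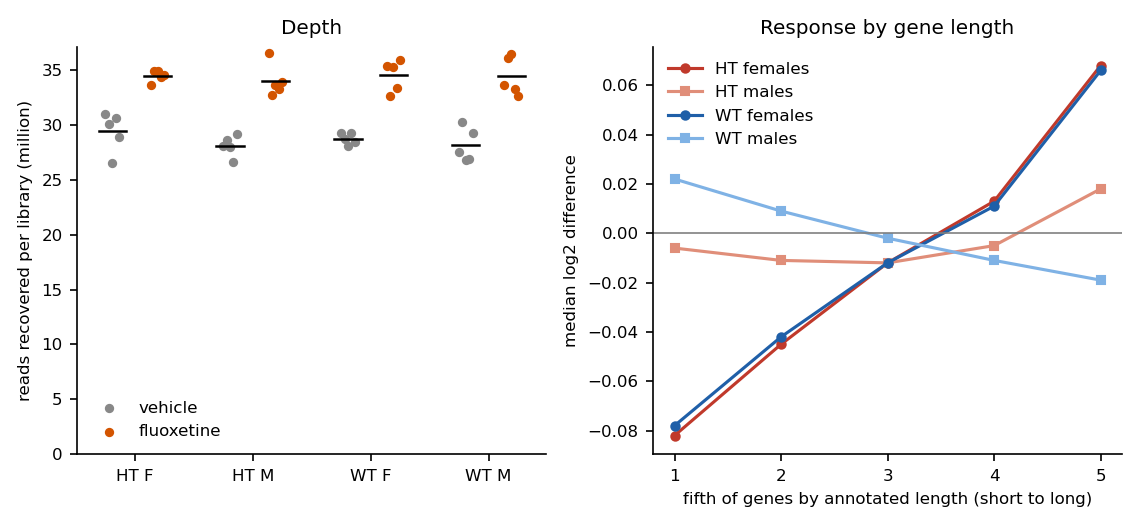
Left, recovered reads per library (M) for vehicle (grey) and fluoxetine (orange) libraries of each arm, F females and M males, 5 points and their mean (line) per group; all fluoxetine libraries lie above all vehicle libraries of their arm. Right, the median log2 difference (fluoxetine minus vehicle) of genes in 5 equal classes of annotated length, one line per arm; from the shortest to the longest class it runs from -0.082 to 0.068 in HT females and from -0.078 to 0.066 in WT females, and from 0.022 to -0.019 in WT males. The WT male fluoxetine group includes replicate 2, which had a length slope of -0.17.

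Averaged over the 4 arms, genes of sterol synthesis, the cytosolic ribosome and the nuclear-encoded respiratory chain were lower under fluoxetine, and endoplasmic reticulum chaperones, some glucocorticoid-induced genes and some postsynaptic genes were higher. Of 17804 genes tested, 1195 were higher (6.71%) and 1386 lower (7.78%) at a limma adjusted p under 0.05, together 2581 (14.5%). Changes were small: the median size among called genes was 0.149 on the log2(normalized count + 1) scale, which is used throughout and understates the change of low genes, and the median SE of the averaged difference was 0.052. Called genes differed in length from the rest. Those higher had a median annotated length of 6070 bases and those lower 3395, where all genes tested had 4038. A model with the depth of each library as a term called 129 genes higher and 362 lower, and 427 of the 2581 kept their call and direction. Without the pair of libraries named above 2145 were higher and 2124 lower, and 2497 of the 2581 kept their call and direction; without WT fluoxetine male replicate 2 alone 1844 were higher. Without the arm of HT females 259 were higher and 251 lower (2.86% in all).

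The single arms differed widely in how many genes passed. HT females gave 1222 calls (6.86% of genes tested), HT males 106 (0.595%) and WT males 14 (0.0786%). WT females gave 0 with limma, although 1930 of their genes (10.8%) had an unadjusted p under 0.05, and with the recovered reads edgeR called 0 and DESeq2 4. The median SE within an arm was 0.105. Without the pair of libraries that stood apart, 479 genes were called in HT males, 35 in WT females and 42 in WT males. Single libraries moved these counts by more than 1.5 times in each arm, to 545 in HT females without their fluoxetine replicate 4, to 37 in HT males without vehicle replicate 4 and 270 without vehicle replicate 1, to 35 in WT females without vehicle replicate 1, and to 0 in WT males without vehicle replicate 4 and 34 without fluoxetine replicate 2. HT vehicle male replicate 1 was the library of its group with a low striatal marker score (-0.476, the mean centred log2 level of medium spiny neuron markers). Without it, alone or with the pair, HT vehicle males had scores of 1.01 to 1.87 and HT fluoxetine males -0.456 to 0.7. The part of striatal tissue in the 479 and 270 calls was not tested.

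Gene by gene, the arms were compared in sign and size. Of the 2581 called genes 2179 (84.4%) had one sign in all 4 arms, and of all genes tested 30.9% did. These called genes were chosen on the same average, so their share describes them and tests nothing. A reading that keeps the calling arms and the read arms separate gave 1824 genes called in the averaged HT arms (10.2%), of which 1726 (94.6%) had the same sign in the averaged WT arms, against 70.3% of all genes. Of these, 702 (38.5%) also had an unadjusted p under 0.05 there in the same direction, against 9.6% of all genes, and 3 had one in the opposite direction. The median size of those 1824 genes was 0.207 in HT, and in WT their median in the direction of the call was 0.09. In the other order, the averaged WT arms gave 37 calls (0.208%), of which 36 (97.3%) had the same sign in HT, against 70.3% of all genes. An unadjusted p under 0.05 in that direction was seen in 33 (89.2%), against 21.9% of all genes. Of these 37 genes 27 were called in both genotypes.

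The same reading was made between the sexes. The averaged female arms gave 2249 calls (12.6%), of which 1881 (83.6%) had the same sign in males, against 61.5% of all genes. The averaged male arms gave 356 calls (2%), of which 323 (90.7%) had the same sign in females. When 3 arms were averaged and the arm left out was read, the share of called genes with the same sign was 95.1% of 510 (2.86% of genes tested were called) in HT females, 92.8% of 1670 (9.38%) in HT males, 87.5% of 1755 (9.86%) in WT females and 75.7% of 2762 (15.5%) in WT males. Over all genes the matching shares were 70.3%, 66.9%, 65.0% and 58.3%.

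Across genes, the log2 differences of a pair of arms had Pearson correlations between 0.08 and 0.319 (17804 genes, which are not independent replicates). The highest was that of HT females with WT females (0.319), and the lowest that of WT females with WT males (0.08). Restricted to 12472 genes whose mean reached 100 normalized counts, the female arms correlated at 0.547, the male arms at 0.502, and HT females with HT males at 0.454. WT females with WT males stood at 0.003. The arms with the higher length slopes under fluoxetine were the female ones, and the part of gene length in these correlations was not tested. In WT males the single library with the slope of -0.17 belonged to the fluoxetine group, whose other libraries had higher slopes than the vehicle libraries of that arm.

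**Figure D2:**
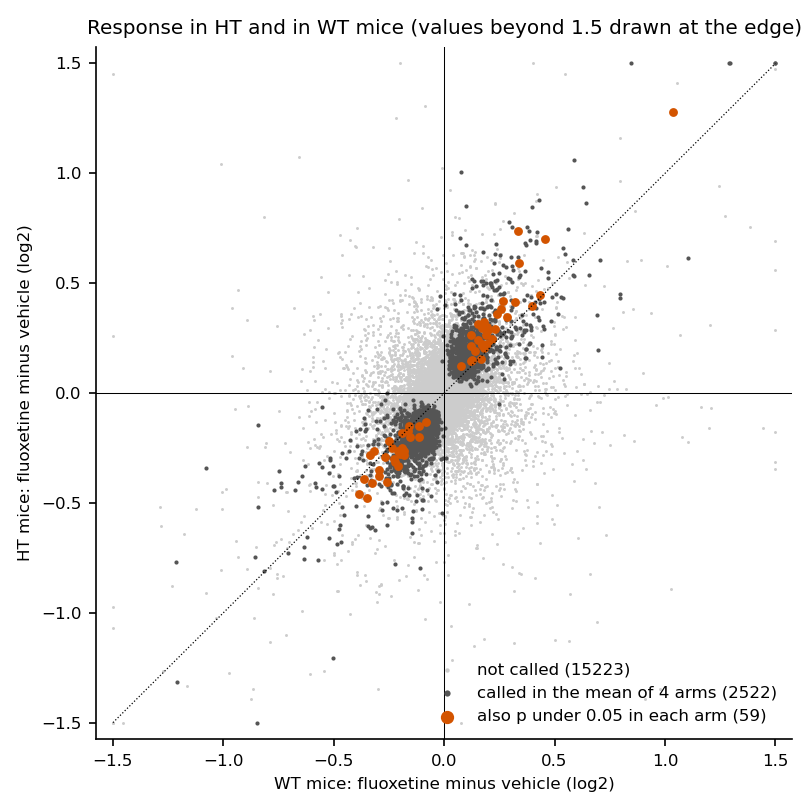
Each point is a gene: its log2 difference (fluoxetine minus vehicle) averaged over the WT arms on the x axis and over the HT arms on the y axis, with values beyond 1.5 drawn at the edge and the dotted line marking equal responses. Grey genes were not called, dark genes were called in the mean of 4 arms, and orange genes are the 59 that also passed in every arm; 702 of the 1824 genes called in HT also had an unadjusted p under 0.05 in WT in the same direction.

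A stricter reading asked for a limma adjusted p under 0.05 in the average and, in each arm, the same sign with an unadjusted p under 0.05. It left 59 genes (0.331% of genes tested), 31 higher (0.174%) and 28 lower (0.157%), called replicated genes here. Without WT fluoxetine male replicate 2 the rule left 78 and 72, without WT fluoxetine male replicate 5 19 and 17, and without WT vehicle female replicate 1 43 lower; the libraries whose loss gave 18 to 20 in one direction were HT fluoxetine male 2, WT fluoxetine male 1 and 3 and WT vehicle female 4. Their averaged changes ran from 0.10 to 1.16 in size, and the SD of a gene's 4 arm values from 0.01 to 0.29. In 35 of the 59 the change was largest in HT females and in 18 in HT males. The difference between genotypes had an unadjusted p under 0.05 in 4 of the 59 (4.41% of all genes tested had one) and that between sexes in 2 (11.7% of all); the rule, which asks for one sign in every arm, partly sets these counts. Just inside the rule lay Prkag2 (0.19, largest p of its 4 arms 0.0484) and Klhl25 (-0.24, 0.0496), and just outside it lay Igsf11 (0.17, 0.0503) and the chaperone gene Pdia4 (0.26, 0.0506). All 59 were called in the average under every other scaling, filter, pseudocount and count test tried and without each single library, and 35 of them with library depth as a term. No gene tested had fluoxetine and vehicle libraries that failed to overlap in all 4 arms, where single arms had 1.82% to 8.33% of such genes.

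**Figure D3:**
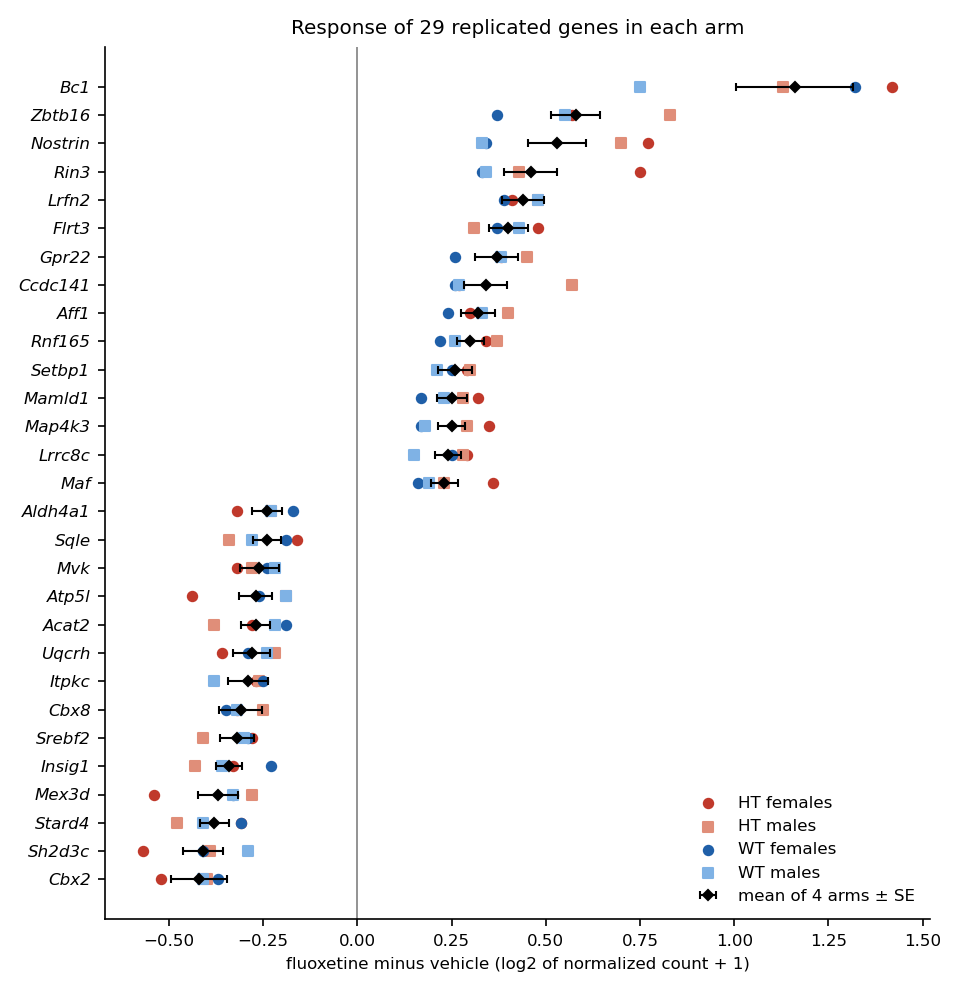
Log2 difference (fluoxetine minus vehicle) of 15 large replicated rises and 14 large replicated falls. Circles and squares are the 4 arms (5 against 5 libraries each) and black diamonds their mean with its SE (20 against 20); all arms of a gene lie on one side of 0 by the rule that chose them.

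The largest replicated rise was that of Bc1, a short non-coding RNA of neuronal dendrites (ENSMUSG00000115783, GRCm38 chromosome 7, 144914470 to 144914637). It had 286 to 1870 normalized counts under vehicle with a median of 477, and 650 to 2570 under fluoxetine with a median of 1320. One WT female vehicle library reached 1870, inside the range of the treated animals, and in HT females the groups did not overlap. The averaged log2 difference of Bc1 was 1.16 ± 0.154 (SE, limma adjusted p = 8.5e-07), with 1.42 in HT females, 1.13 in HT males, 1.32 in WT females and 0.75 in WT males. Bc1 is short and made by RNA polymerase III, and related copies of its sequence lie elsewhere in the genome, so its count is uncertain.

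Zbtb16, a zinc-finger transcription factor induced by glucocorticoids (chromosome 9, 48654297 to 48836222), rose by 0.58 ± 0.065 (SE, limma adjusted p = 2.6e-08). Vehicle libraries had 757 to 1280 normalized counts of Zbtb16 (median 922) and fluoxetine libraries 891 to 1950 (median 1490). The lowest treated value, 891, was that of WT fluoxetine male replicate 2, the library that stood apart; the other 4 of its group lay between 1500 and 1580. By arm the Zbtb16 differences were 0.57 in HT females, 0.83 in HT males, 0.37 in WT females and 0.55 in WT males.

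Lrfn2, a postsynaptic adhesion protein that binds PSD-95 (chromosome 17, 48932379 to 49097588), had 460 to 715 normalized counts under vehicle (median 589) and 583 to 937 under fluoxetine (median 755). All 20 treated libraries lay above the mean of their vehicle group, and the Lrfn2 differences of the arms were close, from 0.39 to 0.48 around a mean of 0.44 ± 0.055 (SE, limma adjusted p = 2.2e-07). Flrt3, an adhesion protein that pairs with latrophilins, rose by 0.40 ± 0.052 with 20 of 20 libraries on that side (limma adjusted p = 6.4e-07). Depth as a term ended the call of Lrfn2 (0.29, limma adjusted p = 0.078) and left that of Flrt3 in place.

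The other large replicated rises covered several cell compartments. Nostrin, which traffics endothelial nitric oxide synthase, rose by 0.53 ± 0.076 from a vehicle median of 114 normalized counts to 161. Rin3, an activator of the endosomal GTPase Rab5, rose by 0.46 ± 0.071 with 20 of 20 libraries above their vehicle mean. In HT females, HT males, WT females and WT males the differences were 0.77, 0.70, 0.34 and 0.33 for Nostrin and 0.75, 0.43, 0.33 and 0.34 for Rin3. Gpr22, an orphan G protein-coupled receptor, rose by 0.37 ± 0.057, Aff1, of the super elongation complex of transcription, by 0.32 ± 0.044, and Rnf165, a ubiquitin ligase of motor axon growth, by 0.30 ± 0.037. Among smaller replicated rises, named after their values were seen, were the cytoskeletal regulators Rhoa (0.13 ± 0.025), Srgap2 (0.14 ± 0.022) and Wasl (0.20 ± 0.034). Rapgef2, an exchange factor for Rap GTPases, showed the closest arms of all, from 0.15 to 0.17.

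Of the 28 replicated falls, 8 were genes of cholesterol synthesis and its control, among them Stard4, Insig1, Srebf2, Acat2, Mvk, Sqle and Fdps. The largest fall outside that group was Cbx2, a chromobox subunit of Polycomb complex PRC1, which went from a vehicle median of 119 normalized counts to 84.1 (-0.42 ± 0.074, SE, limma adjusted p = 1e-04, 20 of 20 libraries lower). Cbx8, another chromobox gene that lies beside it on chromosome 11 (119036305 to 119040969, Cbx2 at 119022962 to 119031270), fell by 0.31 ± 0.058 with arms from -0.25 to -0.35. With a depth term neither chromobox gene was called, at -0.40 for Cbx2 (limma adjusted p = 0.082) and -0.23 for Cbx8 (0.20). Sh2d3c, an adaptor that binds Cas-family proteins, fell by 0.41 ± 0.054, and Mex3d, an RNA-binding ubiquitin ligase, by 0.37 ± 0.054. Both kept their calls with that term. Uqcrh of respiratory complex III (-0.28 ± 0.049) and Atp5l of the ATP synthase (-0.27 ± 0.044) were the replicated falls of the respiratory chain, and in both WT fluoxetine male replicate 2 was the highest library of all 40.

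Genes of sterol synthesis fell. Of 26 measured genes of cholesterol synthesis, uptake and sensing, 19 fell and 0 rose, where 7.78% of all genes fell. Their median difference was -0.18 in HT females, -0.27 in HT males, -0.16 in WT females and -0.20 in WT males, where the median of all genes was within 0.01 of 0 in each arm. A single sign in all 4 arms was seen in 23 of them, all negative. Depth as a term left 14 falls, and with terms for the length and GC slopes 16 fell. Averages of 3 arms gave between 13 and 17 falls.

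Promoter sequence of 18 of these genes was at hand in the RefSeq table for GRCm38.p6 (250 bases before to 50 after the gene start). A classical sterol regulatory element, TCACNCCAC on either strand, was found in the window of 1 of the 18, Hmgcs1, and in 1.39% of the 12634 tested genes with a promoter. The E-box CACGTG, a palindrome that SREBP proteins can also bind, was found in 5 of the 18 and in 11% of all. The windows below belong to 3 genes of the list that were called lower; the other E-boxes lay in the windows of Scap, Sc5d and Hsd17b7. The motif is in capitals, and each line runs 5' to 3' on the strand of the gene.
Hmgcs1 (chr13:119690199-119690237, plus strand): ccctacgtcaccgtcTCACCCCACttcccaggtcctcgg
Insig1 (chr5:28071296-28071331, plus strand): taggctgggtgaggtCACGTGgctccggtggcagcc
Dhcr7 (chr7:143823220-143823255, plus strand): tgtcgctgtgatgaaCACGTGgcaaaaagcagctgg
A match describes the letters of the window and is no evidence of binding, and most of these genes had neither motif there.

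Sensors and regulators of sterol fell. Insig1 (ENSMUSG00000045294, chromosome 5, 28071363 to 28078662), which retains SREBP in the endoplasmic reticulum, had 1670 to 2290 normalized counts under vehicle (median 2010) and 1420 to 1800 under fluoxetine (median 1570). All 20 treated libraries were below the mean of their vehicle group, and the groups did not overlap in HT females, HT males or WT males. The Insig1 difference was -0.34 ± 0.035 (SE, limma adjusted p = 2.5e-09), from -0.23 in WT females to -0.43 in HT males. Srebf2, the transcription factor itself (chromosome 15, 82147181 to 82205379), went from a vehicle median of 6980 normalized counts (5210 to 8110) to 5630 (4130 to 6600). Its difference was -0.32 ± 0.046 (limma adjusted p = 2.8e-06) and its arms lay between -0.28 and -0.41. Scap fell by 0.17 ± 0.053 on average (limma adjusted p = 0.023), with -0.31 in HT females and -0.04 in WT males.

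Transport of sterol between membranes was represented by Stard4. Stard4, a sterol carrier, had 732 to 1120 normalized counts under vehicle and 646 to 883 under fluoxetine, and the groups did not overlap in either male arm. It fell in all arms by 0.31 to 0.48 and in 20 of 20 libraries, from a vehicle median of 948 to 727 normalized counts (limma adjusted p = 2.5e-09).

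The enzymes fell along the length of the pathway, by less than Insig1 or Stard4. At its start were Acat2 (-0.27 ± 0.038) and Hmgcs1 (-0.17 ± 0.043). The mevalonate steps followed with Mvk (-0.26 ± 0.051), Mvd (-0.31 ± 0.061), Idi1 (-0.20 ± 0.045) and Fdps (-0.22 ± 0.044). Squalene and sterol steps included Fdft1 (-0.19 ± 0.047), Sqle (-0.24 ± 0.038) and Dhcr7 (-0.20 ± 0.046). All of these had a limma adjusted p under 0.05 in the average. Not called were Cyp51, Sc5d, Ebp, Pmvk, Tm7sf2 and Hsd17b7, whose averaged differences lay between -0.07 and -0.11. Hmgcs1 and Idi1 differed little in HT females (-0.02 and -0.05) and more in HT males (-0.32 and -0.35), and the difference between sexes did not pass for either (limma adjusted p = 0.32 and 0.30).

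Of 14 genes of fatty acid synthesis 5 fell (35.7%, against 7.78% of all genes) and 1 rose (7.14%, against 6.71%), with a median of -0.03. Fasn, the fatty acid synthase, fell by 0.29 ± 0.060 (limma adjusted p = 0.00057) and Acly by 0.11 ± 0.027. Acsl3, an acyl-CoA synthetase of lipid droplets, rose by 0.16 ± 0.033. Depth as a term left 0 rises and 1 fall of the 14. Acsl3 then stood at 0.12 (limma adjusted p = 0.25) and Acly at -0.16 (0.054). Without HT females 0 rose and 2 fell.

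**Figure D4:**
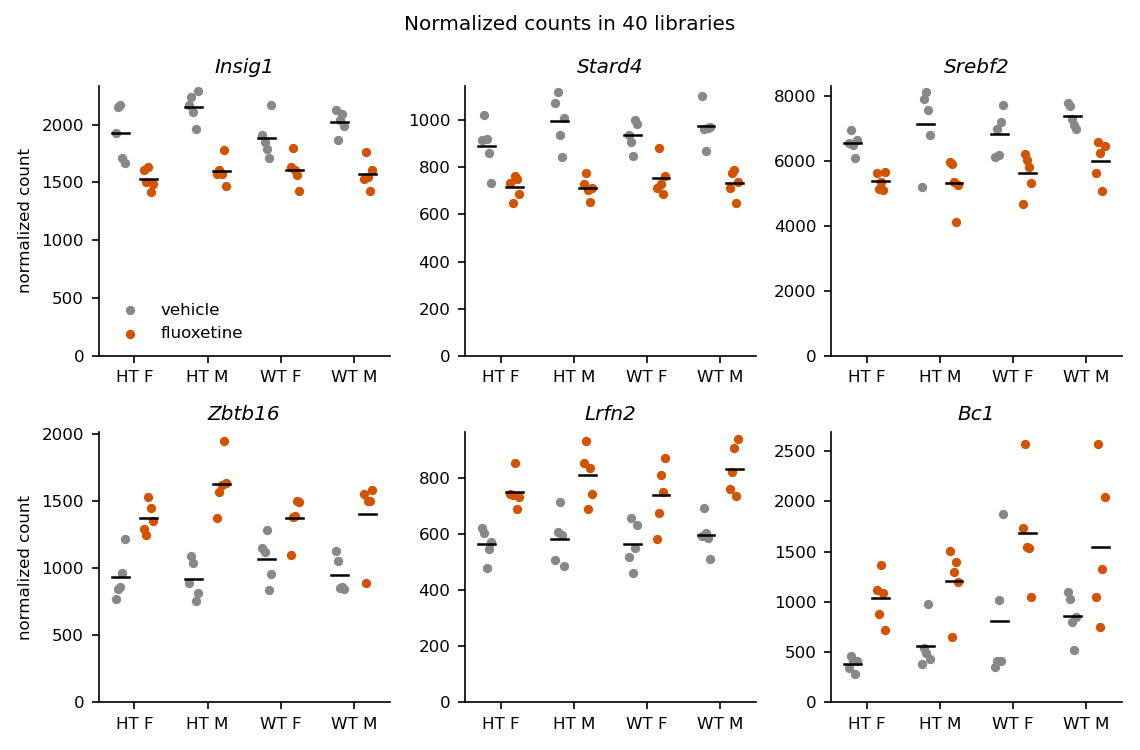
Normalized counts of 6 genes in the 40 libraries, by arm, with vehicle in grey and fluoxetine in orange, 5 points and their mean (line) per group and the y axis starting at 0. The sterol genes Insig1, Stard4 and Srebf2 have lower means and Zbtb16, Lrfn2 and Bc1 higher means under fluoxetine in each arm; Insig1 treated libraries lie between 1420 and 1800 and vehicle libraries between 1670 and 2290.

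Glucocorticoid-induced genes split into members that rose and members that fell. Of 21 measured, 7 rose and 3 fell, where 6.71% of all genes rose, and the median was 0.15 in HT females, 0.32 in HT males, 0.08 in WT females and 0.01 in WT males. The risers besides Zbtb16 were Map3k6 (0.65 ± 0.092), Fkbp5 (0.46 ± 0.085), Hif3a (0.59 ± 0.124), Mertk (0.23 ± 0.050), Klf9 (0.18 ± 0.036) and the scarce lipid droplet gene Plin4 (0.83 ± 0.192). Fkbp5, a co-chaperone that restrains the glucocorticoid receptor, had 619 to 1190 normalized counts under vehicle (median 842) and 739 to 2660 under fluoxetine (median 1140). Its arms were uneven, 0.72 in HT males and 0.69 in WT males against 0.15 and 0.29 in HT and WT females, and the difference between sexes was 0.49 ± 0.171 (limma adjusted p = 0.27). Tsc22d3 and Sgk1, other standard targets, were at 0.07 each and did not pass. The 3 that fell were Dusp1, Ddit4 and Per1, and Dusp1 also stands in the immediate early list. Depth as a term left 3 rises and 0 falls.

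Immediate early genes, which neuronal activity induces within minutes, were counted over 28 measured members. Of these 12 fell, 2 rose and 14 did not pass, where 7.78% of all genes fell. Nr4a1, a nuclear receptor, went from a vehicle median of 2930 normalized counts (1600 to 3680) to 1910 (1170 to 3470), and the treated and vehicle ranges overlapped in all arms but WT males. Its averaged difference was -0.57 ± 0.099 (SE, limma adjusted p = 9.1e-05), with -1.03 in WT males and -0.24 in HT males. Arc (-0.71 ± 0.163), Fos (-0.55 ± 0.117), Junb (-0.58 ± 0.102) and Npas4 (-0.53 ± 0.138) were largest in WT males as well, at -1.55, -1.14, -0.95 and -1.03. The list median was -0.46 in WT males, -0.12 in HT males, -0.11 in WT females and -0.01 in HT females, where 2 members were called higher and 0 lower. None of the list passed with a depth term, and without the arm of WT males 6 fell.

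Some members went the other way. Homer1, a postsynaptic scaffold whose short form is activity-induced, rose by 0.43 ± 0.074 (SE, limma adjusted p = 8.6e-05), from a vehicle median of 6090 normalized counts (5030 to 8180) to 8170 (5280 to 12000). The lowest treated library, 5280, was WT fluoxetine male replicate 2. Values per gene do not separate the long and the short form. Egr1 stood at 0.06 ± 0.075 and Bdnf at 0.13 ± 0.061, neither called.

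Genes of the cytosolic ribosome and the nuclear-encoded respiratory chain fell together, most in HT females. Of 77 ribosomal protein genes 52 fell (67.5%, against 7.78% of all genes) and 0 rose. Their medians were -0.29 in HT females, -0.12 in HT males, -0.17 in WT females and -0.04 in WT males. Of 73 nuclear-encoded respiratory genes 44 fell (60.3%) and 1 rose (1.37%, against 6.71% of all genes). Their medians were -0.26, -0.09, -0.14 and -0.03 in the same order. Rps25 went from a vehicle median of 2320 normalized counts (1950 to 2690) to 1900 (1640 to 3040), a difference of -0.24 ± 0.038 (SE, limma adjusted p = 2.1e-05). Ndufa4, a subunit of cytochrome c oxidase, fell by 0.26 ± 0.045 and Atp5e, a subunit of the ATP synthase, by 0.27 ± 0.047. Reads of ribosomal protein genes can be shared with processed pseudogenes, so single members are uncertain.

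These are short genes, and short genes as a class moved with them in the female arms. Among the 3564 shortest genes (156 to 2166 bases) 10% were lower and 2.64% higher, and among the longest (7096 to 123179 bases) 3.85% were lower and 13.2% higher. With terms for the length and GC slopes 35 ribosomal genes fell and 2 rose, and 25 respiratory genes fell and 7 rose. Without HT females 16 ribosomal and 7 respiratory genes fell. Proteasome subunits showed a smaller pattern, with 11 of 31 lower (35.5%, against 7.78% of all genes) and 1 higher. Psmb3 was among those lower (-0.16 ± 0.031), and without HT females 0 were lower.

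Of the 13 protein-coding genes of the mitochondrial genome 4 rose (30.8%, against 6.71% of all genes) and 0 fell, in contrast to the nuclear-encoded subunits of the same complexes. mt-Nd2, a complex I subunit, rose by 0.32 ± 0.061 (SE, limma adjusted p = 3e-04), from a vehicle median of 106000 normalized counts to 128000. Its difference was 0.58 in HT females and 0.40 in HT males, and 0.13 and 0.15 in WT females and males. Library depth as a term, or the loss of the HT female arm, left 0 of the 13 called, at list medians of 0.12 and 0.10 where the average gave 0.11, and after quantile normalization 2 were called. For mt-Nd2 the value under a depth term was 0.27 (limma adjusted p = 0.15).

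Chaperones of the endoplasmic reticulum rose. Of 18 measured 13 rose (72.2%, against 6.71% of all genes) and 0 fell. Their medians were 0.23 in HT females, 0.09 in HT males, 0.10 in WT females and 0.13 in WT males. Of the 18, 14 were positive in all arms. Pdia4, a disulfide isomerase, had 810 to 1130 normalized counts under vehicle (median 1000.0) and 1000 to 1400 under fluoxetine (median 1200), with 20 of 20 treated libraries above their vehicle mean. Its difference was 0.26 ± 0.049 (SE, limma adjusted p = 0.00025). Hspa5, the chaperone BiP, rose by 0.23 ± 0.057, Hsp90b1 by 0.17 ± 0.035 and Xbp1, a transcription factor of the unfolded protein response, by 0.18 ± 0.042. Of 19 Atf4 targets, a separate stress branch, 1 rose and 1 fell (5.26% each, against 6.71% and 7.78% of all genes). A depth term left 1 of the 18 chaperones called at the same median of 0.15, and without HT females 3 were called.

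Synaptic and growth factor genes changed in part. Of 37 postsynaptic density genes 9 rose (24.3%, against 6.71% of all genes) and 0 fell, among them Shank2 (0.20 ± 0.037), Dlgap4 (0.13 ± 0.029) and Homer1. Of 15 neurotrophin and growth factor genes 3 rose (20%) and 0 fell, among them Ntrk2, the BDNF receptor TrkB (0.14 ± 0.029, limma adjusted p = 0.0011) and the fibroblast growth factor gene Fgf2 (0.22 ± 0.051). No gene of either list was called with a depth term, under which Shank2 stood at 0.17 and Ntrk2 at 0.13 (limma adjusted p = 0.14 for each), and the postsynaptic median was 0.06 where the average gave 0.07. Without the pair of libraries that stood apart 17 postsynaptic density genes rose and 1 fell. Calls over all genes grew as well, to 2145 higher and 2124 lower from 1195 and 1386.

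Of 17 measured serotonin receptor and transport genes, the direct surroundings of the drug's target, 1 rose and 0 fell. That is 5.88% higher, near the 6.71% of all genes. Htr2a, the receptor 5-HT2A, had 1360 to 1720 normalized counts under vehicle (median 1600) and 1420 to 2050 under fluoxetine (median 1720). The overlap was broad, and the difference of Htr2a was 0.15 ± 0.037 (SE, limma adjusted p = 0.0053), between 0.12 and 0.18 in the 4 arms. Htr1a was at -0.05 ± 0.047. A depth term put Htr2a at 0.17 (limma adjusted p = 0.15).

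Other lists gave few calls. Gli1, the transcription factor that Hedgehog signalling induces, went from a vehicle median of 61.1 normalized counts (42.2 to 86.2) to 40.8 (29.9 to 50.6), a fall of 0.59 ± 0.098 (SE, limma adjusted p = 5.6e-05) with 20 of 20 libraries lower, although its count is low. The 14 Hedgehog genes included 1 rise, Gli3 (7.14%, against 6.71% of all genes), and 2 falls (14.3%, against 7.78%). Under a depth term none of the 14 was called, and Gli1 stood at -0.48 (limma adjusted p = 0.12). Of 19 clock genes 1 rose (5.26%), the Clock relative Npas2 (0.23 ± 0.048), and 3 fell (15.8%), Per1, Ciart and Nfil3. The call of Nfil3 was lost in 15 of the 40 fits that left out a single library, and a depth term left 0 of the 19 called, with Npas2 at 0.12 (limma adjusted p = 0.47). Of 30 potassium channel genes 4 rose (13.3%), led by Kcnn2 of the small-conductance calcium-activated channels (0.20 ± 0.029), and 2 fell (6.67%). Of 26 presynaptic genes 2 rose, Syn1 and Vamp2 (7.69%), and 1 fell (3.85%), shares near or below those of all genes (6.71% and 7.78%), and of 16 cytosolic heat shock genes 2 rose (12.5%). Of 23 interferon-induced genes 3 fell (13%, against 7.78% of all), Ifi27, Stat2 and Ifit3b. Ifit3b lost its call in 24 of the 40 fits that left out a single library, and under a depth term none of the 23 was called.

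Markers of cell types were counted because whole tissue was used, in which fewer cells of a type and less RNA per cell cannot be told apart. Of 20 endothelial and mural markers 7 rose and 0 fell, led by Flt1, a VEGF receptor (0.32 ± 0.040, limma adjusted p = 3.7e-07), and the glucose transporter Slc2a1 (0.31 ± 0.062), where 6.71% of all genes rose. The list median was 0.11 in HT females, 0.12 in HT males and 0.08 in WT females. In WT males it was -0.06, with 9 members positive and 11 negative. In all 4 arms 7 members were positive and 3 negative. A depth term left 1 of the 20 called, Flt1 (0.33, limma adjusted p = 0.011), with Slc2a1 at 0.26 (0.17). Their summed level ran from 17700 to 25900 normalized counts under vehicle and 19100 to 26500 under fluoxetine, so the ranges overlapped. Of 17 myelinating oligodendrocyte markers none passed in either direction, and of 16 astrocyte, 16 microglia and 19 interneuron markers 2, 1 and 1 rose and 0, 1 and 1 fell. Of 16 cortical projection neuron markers 4 rose and 0 fell (0 and 0 with a depth term), of 13 oligodendrocyte precursor markers 2 rose and 0 fell, and of 14 meningeal, 6 choroid plexus and 6 erythroid markers 0 passed. Striatal medium spiny neuron markers had no call in the average. Their median was -0.97 in HT males, where all 18 were negative and 7 called lower, and 0.13 to 0.26 in the other arms. The marker score, their mean centred log2 level, was 1.01, 1.74, 1.87 and 1.65 in HT vehicle male replicates 2 to 5 and -0.476 in replicate 1. HT fluoxetine males lay between -0.456 and 0.7 (difference -1.26, exact permutation p = 0.056, adjusted 0.3). The summed level of these markers reached 36600 normalized counts in a vehicle library where the vehicle median was 15600. Olfactory bulb markers had 0 calls and a median of -0.66, with summed levels from 5280 to 24000 under fluoxetine and 5400 to 23300 under vehicle. With terms for both marker scores the sterol list had 23 falls, the ribosomal list 49 and the chaperones 12 rises. The part of dissection in other genes was not tested.

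**Figure D5:**
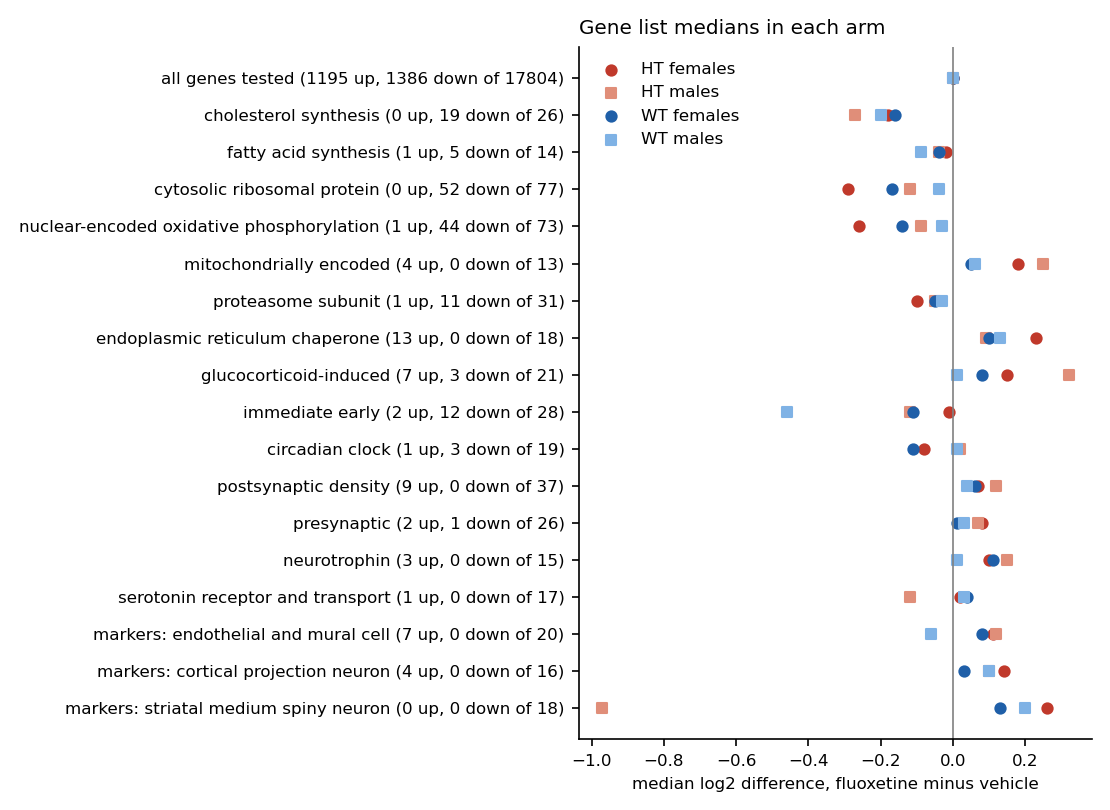
Median log2 difference (fluoxetine minus vehicle) of each gene list in the 4 arms, with the number of members called higher (up) and lower (down) in the average beside its name. The sterol, ribosomal and respiratory lists lie below 0 in every arm and the chaperones above 0; immediate early genes reach -0.46 in WT males and striatal markers -0.97 in HT males.

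Whether the response differed between arms was tested as an interaction. Between genotypes limma called 0 genes (786 had an unadjusted p under 0.05, 4.41%), where edgeR called 0 and DESeq2 1. Among the smallest p-values was that of Kcns2, a modifier subunit of potassium channels (-0.32 ± 0.071, HT response minus WT response, limma adjusted p = 0.33). Among the 26 sterol genes 1 had an unadjusted p under 0.05 for this difference, and their median difference was -0.03. For the interaction of genotype, sex and drug limma and edgeR called 0 genes (493 with an unadjusted p under 0.05, 2.77%) and DESeq2 1. A p that misses the threshold does not show that the genotypes responded alike.

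Between sexes limma called 2 genes (0.0112%), and 2090 had an unadjusted p under 0.05 (11.7%). The count lay between 1 and 5 over the fits that left out a library. It was 0 without the pair of libraries that stood apart, with terms for the length and GC slopes, and with terms for the striatal and olfactory bulb marker scores. Dbp, a clock-controlled transcription factor whose level cycles over the day, was lower in HT females, where vehicle libraries held 2360, 2150, 2230, 2160 and 2350 normalized counts and fluoxetine libraries 1360, 1560, 1800, 1510 and 1190. In WT males Dbp had 1690, 1040, 1250, 1320 and 1350 normalized counts under vehicle and 1890, 2190, 1980, 1510 and 1880 under fluoxetine. The groups did not overlap in HT females, and in WT males 1 vehicle library lay above the lowest treated one. The response in males minus that in females was 0.73 ± 0.132 (SE, limma adjusted p = 0.015), and Dbp was the 1 gene for which the test over all arms passed (0.00562% of genes, limma adjusted p = 0.018). Without the pair of libraries that stood apart that test called 11 genes, and with the length and GC slopes 0. Marc2, a mitochondrial reductase, had a sex difference of 0.33 ± 0.064 (limma adjusted p = 0.037), with -0.14 and -0.24 in females and 0.11 and 0.17 in males.

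Among the lists of short genes, 35 of 73 respiratory and 26 of 77 ribosomal genes had an unadjusted p under 0.05 for that difference, against 11.7% of all genes, and none of them passed after adjustment. Of striatal markers 8 of 18 had one and of the sterol genes 4 of 26, with a median of -0.07 in the latter.

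Lithium-treated libraries served as a second reference, with the caution that this contrast holds the same fluoxetine libraries. Fluoxetine libraries differed from lithium libraries in 5863 genes (32.9% of genes tested, 16.9% lower and 16% higher in fluoxetine). Of the sterol genes 3 of 26 were lower and 1 higher in fluoxetine than in lithium, with a median of -0.03, and Insig1 (-0.03, limma adjusted p = 0.49) and Sqle (0.01, 0.94) did not differ beyond their spread. Of the 18 chaperones 7 were lower and 1 higher. Of the respiratory genes 61 of 73 and of the ribosomal genes 63 of 77 were lower in fluoxetine. Zbtb16 did not differ beyond its spread (0.06, limma adjusted p = 0.53), whereas Bc1 was higher in fluoxetine (0.66, limma adjusted p = 0.00073), as were Flrt3 (0.27, 5.9e-05) and Lrfn2 (0.20, 0.0031). In females, where lithium libraries were as deep as fluoxetine libraries (32.1 to 35.9 M), 3445 genes differed (19.3%, 10.2% lower and 9.1% higher), and 60 of 77 ribosomal, 56 of 73 respiratory, 1 of 26 sterol and 1 of 18 chaperone genes were lower in fluoxetine. The length slopes were not matched: female lithium libraries lay between -0.0401 and 0.025 and female fluoxetine libraries between 0.0098 and 0.0682. The part of gene length in these counts was not tested.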

How the data were processed

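RNA sequencing libraries were made from the prefrontal cortex of mice and the kit, per the labels' protocols, kept strand and selected mRNA. The deposited table holds, for 18088 genes and 60 libraries, a signal that the authors obtained by dividing read counts per gene by a size factor for each library. Salmon 0.11.2, DESeq2 1.19.11, R 3.6.0 and the build GRCm38 are named in the submitters' processing notes, without their order. Within a tolerance of 0.01, 100% of the values came out as whole reads after the size factors (0.85 to 1.25) were recovered from the steps between values, which gave the depths.

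Of these genes 17804 reached 10 normalized counts in 5 or more libraries and were tested, and 284 were not. Group means of 12 groups were fitted to log2(normalized count + 1) with limma 3.58.1 (trended variance, R 4.3.3), with 48 residual degrees of freedom, and the fluoxetine minus vehicle difference was taken in each arm and averaged with equal weight. Two-sided p-values were adjusted by Benjamini-Hochberg over all genes tested, and an adjusted p under 0.05 is a call. On the recovered reads, edgeR 4.0.16 (quasi-likelihood) called 2627 genes in the average, 2502 of them shared, and DESeq2 1.42.0 called 2908, 2528 of them shared. Library measures were compared by exact permutation tests. Symbols were known for 18077 of the gene IDs, from the reference annotation and name tables, and lengths for 99.94% of IDs. The limma and edgeR fits were tested on simulated counts with known changes, and the DESeq2 fit and the permutation tests were not.

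The arms, the gene lists and the markers were chosen with earlier results of these data known. Genes named are Trip12, the 15 largest replicated rises and falls whose mean reached 50 normalized counts, for each list up to 4 called members with the smallest p, and the smallest p-values of each difference between arms. Other genes were named after their values were seen, as members of a list, as genes near a threshold or as further replicated genes. Some genes that this rule takes are not reported here.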

Additional observations from a re-analysis of the deposited data

Results flagged for a closer look

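In each group of 5 libraries a value was marked when its gap to the nearest other value was more than 0.71 of the range of the group, which chance gives in about 1 of 20 groups. Of 240 groups over the 30 largest replicated genes, 17 held such a value. WT fluoxetine male replicate 2 supplied 6 of them. It was low for Zbtb16 (891 normalized counts, the others from 1500 to 1580), Ccdc141 (657, others 846 to 911), Rnf165 (2910, others 3360 to 3530) and Mamld1 (987, others 1210 to 1260). It was high for the respiratory genes Uqcrh (4190, others 2550 to 2720) and Atp5l (3560, others 2400 to 2620). In all 6 genes this library lay toward or beyond the vehicle level, against the direction of the averaged change.

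The other 11 came from 11 libraries. Vehicle libraries stood out for Bc1 in HT males (replicate 4, 979 normalized counts), Ccdc141 in WT females (replicate 3, 956), Cbx2 in WT females (replicate 4, 150), Cbx8 in HT females (replicate 1, 322), Sqle in WT males (replicate 5, 1990) and Aldh4a1 in HT females (replicate 5, 794). Fluoxetine libraries stood out for Lrrc8c and Sh2d3c in HT males (replicate 4, 1320, and replicate 3, 548), Mex3d in WT males (replicate 5, 350), Itpkc in HT females (replicate 5, 197) and Mvk in WT females (replicate 5, 346).

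Among library measures, the length slope of WT fluoxetine male replicate 2 was -0.17 and that of HT fluoxetine male replicate 2 was 0.0408, where the others of its group lay between 0.0125 and 0.019. The GC slope of HT vehicle male replicate 1 was -2.61. The striatal marker score was high for its group in HT fluoxetine male replicate 4 (0.7), WT fluoxetine female replicate 3 (1.03) and WT vehicle female replicate 5 (0.43). HT vehicle male replicates 2 to 5, at 1.01 to 1.87, were higher than most libraries but were not marked by this rule.

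The response to fluoxetine differed between the sexes, by a test of the difference itself, for Dbp (0.73, males minus females) and Marc2 (0.33). Neither passed after adjustment without WT fluoxetine male replicate 2 and HT vehicle male replicate 1 together, nor with terms for the length and GC slopes or for the striatal and olfactory bulb marker scores, under each of which limma called 0 sex differences.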

How the results depend on the processing

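The averaged counts stayed within 1.5 times of those reported under every other scaling, filter, pseudocount and count test, with the 40 libraries fitted alone, with reads thinned to 25.1 M and with the length and GC slopes. The genes called were less alike than their number. With the length and GC slopes 1484 of the 2581 calls (57.5%) were shared in direction, and 23 of the 59 replicated genes stayed replicated. With a depth term 427 calls (16.5%) and 24 replicated genes were shared. Library depth as a term gave 129 genes higher and 362 lower in the average, 95 replicated falls, 14 calls in HT males, 2 in WT females, 1 in WT males and 1 sex difference. The median Pearson correlation of the 6 pairs of arms (0.238) was then 0.423, and 45.8% of genes had one sign in 4 arms. The shares with the same sign were then 99.6% from HT to WT, 100% from WT to HT, 97.8% from females to males and 100% from males to females. The depth term has a common slope per gene for all libraries, and the depth gap was alike in the arms (5.03 to 6.27 M). It therefore shifts the 4 arm differences of a gene by similar amounts. The correlation, these shares and the 95 replicated falls are partly set by that and do not measure replication. With the depth term, of 118 named genes 53 kept their side of the threshold, 64 lost their call and 1, Kcnk1, reversed (-0.01). Slc1a2 reversed with quantile normalization (-0.03). Without the pair of libraries that stood apart there were 2145 higher and 2124 lower genes, 117 replicated rises and 109 replicated falls. The arms then held 479 calls in HT males, 35 in WT females and 42 in WT males, with 1 genotype difference, 0 sex differences and 11 differences over all arms. The shares were then 38.0% (one sign), 92.7% (females to males) and 94.7% (males to females). The length and GC slopes as terms gave 471 calls in HT females, 280 in HT males, 1 in WT females, 44 in WT males, 0 sex differences and 0 over all arms, with 92.4% from females to males. Striatal and olfactory bulb scores gave 51 replicated falls, 1890 calls in HT females, 0 sex differences, and shares of 81.5% and 84.2% from females to males and back. DESeq2 gave 198 calls in HT males, 4 in WT females, 41 in WT males, 1 genotype difference, 9 sex differences and 1 for the interaction of genotype, sex and drug. EdgeR gave 4 sex differences. A filter at 50 gave 1 call in WT females and a median correlation of 0.356, and the 40 libraries alone 0 differences over all arms. Averages of 3 arms gave 259 higher and 251 lower genes without HT females, 725 higher without HT males and 904 lower without WT females. The cause was not tested for any of these.

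Leaving out each of 40 libraries gave 973 to 1844 genes higher and 1166 to 1799 lower, 19 to 78 replicated rises and 17 to 72 replicated falls. Calls ran from 545 to 1612 in HT females, 37 to 270 in HT males, 0 to 35 in WT females and 0 to 34 in WT males. The median correlation ran from 0.205 to 0.265 and the share with one sign from 27.6% to 37.1%. The shares with the same sign ran from 92.3% to 95.7% (HT to WT), 92% to 98.9% (WT to HT), 79.3% to 90.6% (females to males) and 86.1% to 94.4% (males to females). Sex differences ran from 1 to 5 and differences over all arms from 0 to 9. Most of the highest values came without WT fluoxetine male replicate 2.

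Samples of the same number did not deviate together more than other pairs did. The median correlation was -0.006 over 20 pairs of the same number (7 above 0.1) and 0.024 over 80 other pairs (30 above 0.1). The numbers were not used to pair the samples, and whether they share a litter or batch was not tested. With the replicate number as a block the average held 1165 higher and 1399 lower genes, 32 and 29 were replicated, and 1 sex difference was called.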
